A study of Arabidopsis thaliana with 156 samples.

Results

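The change from day 4 to day 9 in the shoot apex of FRI;FLC Arabidopsis thaliana was measured on 6 arrays, 3 of day 9 apices and 3 of day 4 apices, out of 156 arrays in 53 groups of genotype, organ and age. The 6 arrays were chosen by their labels alone, and all 19324 probe sets of the table were compared as day 9 minus day 4. An apex sample held the shoot tip with primordia up to 1 mm long, and a replicate pooled 60 apices at day 9 and 120 apices at day 4. Both ages came from Col-0 plants that carry the FRI allele of Sf-2 and a functional FLC gene. Plants were grown at 23 °C on days with 16 h of light, and their age counts the days since they entered the chamber. RNA of 3 collection times within the day was pooled for each replicate, and 50 ng of it was reverse-transcribed and amplified for labelling. The series covers apices, leaf primordia and leaves of FRI;FLC and FRI;flc-3 plants and of FRI;FLC plants with a miR156 target mimic driven by the 35S promoter, and 30 of its arrays are apices. The labels do not say that replicates were sown separately, so p-values measure the spread between pools of apices. Age and the number of apices per pool cannot be told apart.

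FRI raises the activity of FLC, a MADS-box repressor of flowering, so FRI;FLC plants that have had no winter cold flower late. Between germination and the formation of the first rosette leaves the seedling turns from stored reserves to photosynthesis, and the meristem begins to set out leaves one after another. The stem cells at the tip are kept by a feedback between the CLV3 peptide and the factors it restrains, and leaf founder cells arise at sites of auxin response on its flanks.

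The deposited values are log2 signals of each probe set, with the base read from their range since no label states it. The 6 arrays resembled each other more within an age (Pearson r of 0.993 to 0.996 among day 9 arrays and 0.981 to 0.987 among day 4 arrays) than between ages (0.926 to 0.966). Array medians were 6.70, 6.67 and 6.71 at day 9, against 6.40, 6.50 and 6.48 at day 4. The bacterial hybridisation controls bioB and bioC averaged 9.03, 9.11 and 9.16 at day 9 and 10.7, 9.78 and 10.4 at day 4, and all 10 of their probe sets were called lower at day 9, while 0 of 4 cre controls were called. The bioD controls differed by -0.48, -0.54 and -0.33, all called lower, and by -0.20, not called. The part of these controls in the differences below was not tested. Of 11 shoot meristem and boundary markers 2 were measured, CLV3 and LAS, and both were called lower at day 9. PYK10 was the only 1 of 18 root markers measured, at 11.7 at both ages. The mature leaf marker RCA averaged 12.4 at day 9 and 11.7 at day 4. None of the 11 vascular and 15 seed and embryo markers was measured, so the share of those tissues in the samples was not tested. A marker counts as measured here if a named probe set matched it. Since 7999 of 19324 probe sets were not listed with a gene, markers not measured may still be on the array.

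The apex changed widely over these 5 days. In a limma fit over the 30 apex arrays, 9384 of 19324 probe sets (48.6%) were called at an adjusted p under 0.05, 4846 higher (25.1%) and 4538 lower (23.5%) at day 9. A difference of at least 2-fold (1 on the log2 scale) was reached by 4683 of them (24.2%), 2827 higher (14.6%) and 1856 lower (9.6%). The median difference over all probe sets was -0.01. Since the array medians differ, centring each array on its median, a choice made after seeing the data, moved the median difference to -0.24 and the split to 3557 higher and 6948 lower. Differences below are on the deposited scale. Signals near or below 2.05, the 10th percentile of all apex values, lie at the low end of that scale, and the size and rank of a difference against such a signal carry no exact meaning. In simulated data with the spread of these arrays the same fit called 6.56% of changes of 0.5, 62.9% of changes of 1 and 96.1% of changes of 2 on the log2 scale. Only 61, 62 and 77 probe sets were changed there by these amounts, and all others were left unchanged. The Benjamini-Hochberg adjustment is stricter when so few change, so these shares are no estimate for the comparison above. Between pools of apices, fewer cells of a type and less RNA per cell cannot be told apart.

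The difference followed gene length. Probe sets were divided into 10 equal groups by gene length. Among those with the shortest genes (up to 1010 bp from start to end of the gene) 5.13% were called higher and 47.9% lower at day 9, with a median difference of -0.43. In the group with the longest genes (at least 4335 bp) 38.0% were called higher and 8.91% lower, with a median of 0.43. On single arrays, the slope of the signal on 10-fold length was 0.43, 0.26 and 0.67 at day 9 and -1.07, -0.61 and -0.83 at day 4, relative to each probe set's mean over the apex arrays. The slopes of these ages do not overlap. The FRI;FLC arrays of day 6, alike in age and number of apices, had slopes of -1.38 and 0.05. Those of day 6 with the miR156 target mimic had 0.625, 0.018 and 0.698, so arrays of a single age also differed widely. Whether the slopes arise in the tissue or in the amplified RNA was not tested. The gap between the 3' and 5' actin control probe sets, a measure of how far the amplified RNA reaches, was 2.45, 2.21 and 2.34 at day 9, with 2.40, 2.62 and 3.21 at day 4. In FRI;flc-3 it was 2.68, 2.47 and 2.40 at day 9, with 3.47, 3.64 and 3.75 at day 4, where the ages do not overlap. The GAPDH gap in FRI;flc-3 was 0.967, 0.927 and 0.637 at day 9, with 1.19, 1.16 and 1.19 at day 4. In FRI;FLC the GAPDH gaps of the ages overlapped, and the ubiquitin gaps overlapped in both genotypes. The 25S ribosomal RNA control read 9.62, 8.82 and 9.14 at day 9 and 11.3, 10.5 and 9.75 at day 4 in FRI;FLC, and was called lower (-1.33 ± 0.38; limma, adjusted p = 0.00588). Their part in the results was not tested. After removal of each array's trend on length, 5026 of 10891 probe sets (46.1%) were called, 2460 higher (22.6%) and 2566 lower (23.6%), against 2524 (23.2%) and 2766 (25.4%) before. Of the 5290 probe sets with a length that were called as deposited, 4053 were called again with the same sign and 29 with the opposite sign. Over the named genes with a length, 46.1% were called after this removal, 22.7% higher and 23.4% lower. Gene groups below are given with their counts after this removal where the counts differ enough to change the picture. Genes with array values follow a rule given with the processing, and so do many of those named only by a difference. The other genes named only by a difference were picked as further examples after their values were seen.

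**Figure D1:**
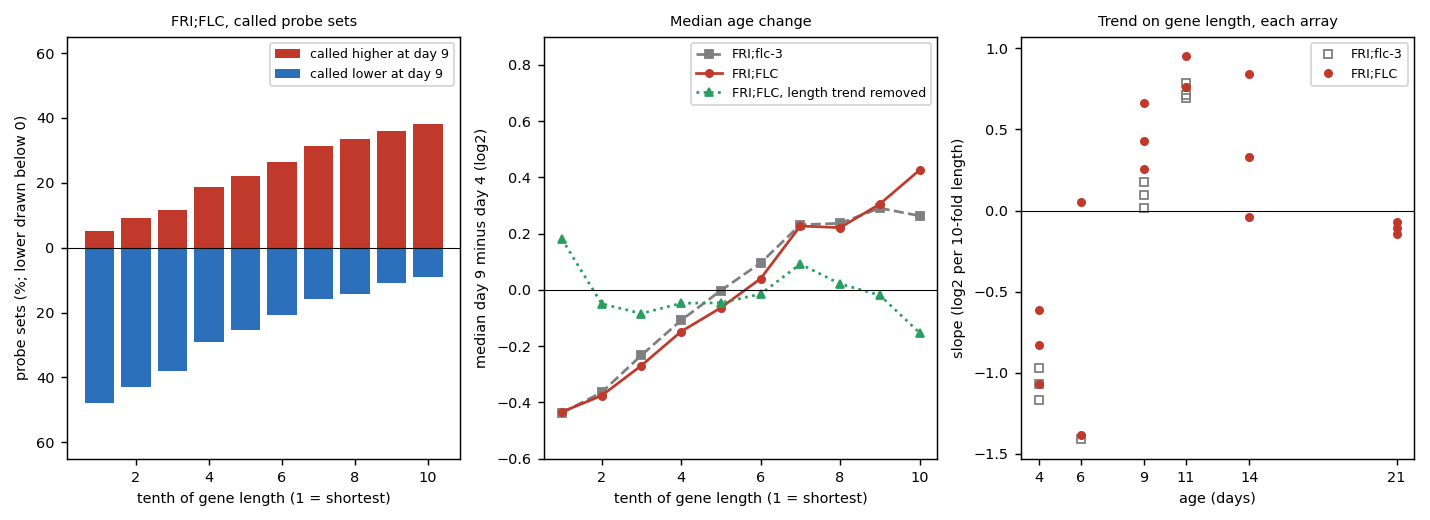
Day 9 minus day 4 against gene length, in 10 equal groups of 10891 probe sets by length. Left, the share of probe sets called higher (above 0) and lower (below 0) at day 9 in FRI;FLC; centre, the median log2 difference for FRI;flc-3, for FRI;FLC and for FRI;FLC after removal of the length trend; right, the slope of log2 signal on 10-fold length for each array against age in days. The share called higher runs between 5.13% in the group with the shortest and 38.0% in the group with the longest genes, and the 3 day 9 slopes of FRI;FLC lie above its 3 day 4 slopes.

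The 10781 genes that could be named (1 probe set each, the one with the highest mean) included 5246 called (48.7%), 2491 higher (23.1%) and 2755 lower (25.6%). The counts of each list below are to be read against these shares, and whether a list departs from them was not tested. The largest rise was that of AT4G17470, with 9.03, 8.01 and 9.13 at day 9 and 2.96, 3.08 and 3.98 at day 4. Its difference was 5.38 ± 0.45 on the log2 scale (± SE, as for all differences below; limma, adjusted p = 2.11e-09). The serine carboxypeptidase-like gene scpl31 came next, with 8.36, 8.39 and 8.63 at day 9 and 3.38, 3.12 and 3.68 at day 4, a difference of 5.07 ± 0.23 (limma, adjusted p = 1.27e-14). AT1G67860 (difference 4.30 ± 0.50), AT1G12120 (4.26 ± 0.52) and the subtilase gene AT4G21650 (3.99 ± 0.31) completed the 5 largest rises. In all 5 the arrays of the ages did not overlap, which the rule for naming them required. Over all 9384 called probe sets, 8926 had no such overlap, which a call with 3 arrays per age makes likely. Removal of the length trend left differences of 3.71 to 5.30 in the 5 genes. Of the probe sets with no gene name here, 266383_at showed the largest rise, with 10.73, 10.52 and 10.50 at day 9 and 5.17, 6.88 and 5.98 at day 4, and 254818_at the largest measured fall, with 1.51, 1.58 and 1.12 at day 9, all at the low end of the scale, and 7.00, 3.31 and 6.02 at day 4.

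Further large rises were measured for genes with a symbol. RH39, a DEAD-box RNA helicase of the chloroplast, read 8.00, 7.61 and 8.19 at day 9 and 3.64, 4.60 and 3.69 at day 4. CR4, also known as ACR4, a receptor kinase of the epidermis and root tip, read 6.92, 6.23 and 7.52 at day 9 and 3.55, 4.20 and 3.65 at day 4. ZAP1, a WRKY factor, differed by 3.10 ± 0.49 (limma, adjusted p = 2.31e-05). The arrays of the 2 ages did not overlap for any of these genes, which the rule for naming them required. The same holds for the chromatin remodeller CHR23 (difference 3.08 ± 0.51, with day 4 at the low end of the scale), the microtubule-associated TRM19 (2.99 ± 0.43), the clock gene TIC (2.81 ± 0.42), pEARLI4 (2.77 ± 0.37) and THIC, an enzyme of thiamine synthesis (2.76 ± 0.40). THIC averaged 9.41 at day 9 and 6.64 at day 4, a 6.78-fold difference.

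The largest measured fall was that of AT3G53250, a member of the SAUR family of small auxin-induced genes, which read 2.42, 2.05 and 2.25 at day 9 and 8.34, 7.37 and 8.14 at day 4. Its day 9 arrays are at the low end of the scale, with a measured difference of -5.71 ± 0.30 (limma, adjusted p = 2.52e-13). AT5G26270 fell by 5.66 and AT5G35870 by 4.18 on the log2 scale. AT4G12490 had 1.26, 1.41 and 1.47 at day 9 and 7.79, 2.00 and 7.99 at day 4, and its day 4 replicate 2 lay close to the day 9 arrays while the others were far above. Its day 9 arrays, like those of petG, lay at the low end of the scale. The plastid genes petN (-4.24 ± 0.63) and petG (-3.39 ± 0.48), which encode small subunits of the cytochrome b6f complex, were lower as well, and still by 2.46 and 1.74 on the log2 scale after removal of the length trend.

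Further falls were found among genes with a symbol. The expansin gene EXPA8, whose protein loosens the cell wall, read 5.50, 5.94 and 5.97 at day 9 and 9.19, 9.39 and 8.90 at day 4. SWEET16, a sugar carrier of the vacuole membrane, read 5.72, 5.59 and 4.37 at day 9 and 9.03, 8.24 and 8.44 at day 4. SWEET2, another vacuolar sugar carrier, differed by -2.95 ± 0.54. All day 9 arrays of these genes were below all day 4 arrays, as the rule for naming them required. The defensin PDF1.2, a marker of jasmonate and ethylene responses, read 3.83, 3.50 and 3.84 at day 9 and 7.47, 7.15 and 5.83 at day 4, and the jasmonate-regulated JRG21 differed by -3.24 ± 0.27 (limma, adjusted p = 2.36e-09). PUB26, an E3 ubiquitin ligase, fell by 2.60 and its close relative PUB25 by 2.48. The gibberellin signalling F-box gene SLY2 fell by 2.58, and CLE27, a gene of the CLE peptide family, by 2.50.

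**Figure D2:**
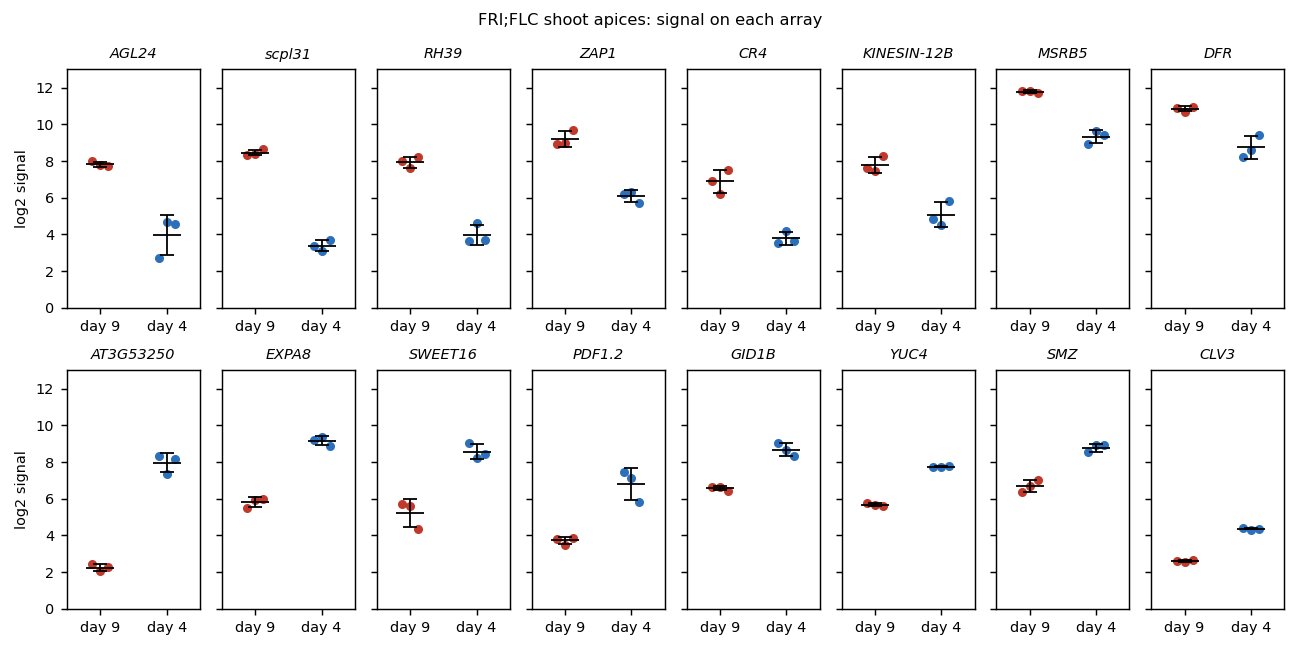
log2 signal of 16 genes on each FRI;FLC array, day 9 (red) left of day 4 (blue); the line is the mean and the bar ± 1 SD of 3 arrays. In the upper row all day 9 arrays lie above all day 4 arrays, and in the lower row all lie below; AGL24 spread between 2.70 and 4.65 at day 4.

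Among 11 measured genes of flowering time and the floral transition, 4 were called higher and 2 lower at day 9, with a median difference of 0.58 against -0.06 over all named genes (3 and 3 with arrays centred on their medians). AGL24, a MADS-box promoter of flowering, showed the largest rise of the group, with 7.99, 7.77 and 7.74 at day 9 and 2.70, 4.65 and 4.56 at day 4. Its difference was 3.86 ± 0.33, a 14.6-fold higher signal (limma, adjusted p = 2.80e-09), and 3.64 with the length trend removed. LD, a homeodomain gene of the autonomous pathway, read 6.36, 6.40 and 6.84 at day 9 and 4.20, 4.13 and 3.54 at day 4, a difference of 2.58 ± 0.44. SMZ, an AP2-type repressor of flowering that is a target of miR172, moved the other way, with 6.35, 6.68 and 7.00 at day 9 and 8.54, 8.91 and 8.92 at day 4 (difference -2.11 ± 0.26; limma, adjusted p = 1.32e-06). Day 9 and day 4 arrays were apart for all 3 genes, as the rule for naming them required.

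GI, a clock-linked promoter of flowering, was called higher (difference 0.97 ± 0.28), but not after removal of the length trend (0.40, limma, adjusted p = 0.269). FD, the bZIP partner of FT in the apex, read 3.08, 3.14 and 3.27 at day 9 and 2.18, 3.09 and 2.08 at day 4, and its call (limma, adjusted p = 0.0244) ended when day 9 replicate 3, day 4 replicate 1 or day 4 replicate 3 was left out, and when arrays were centred. Among the remaining genes of the transition, AGL42 (0.58 ± 0.32) and AGL19 (0.63 ± 0.27) were not called (limma, adjusted p = 0.136 and 0.0543), although the arrays of the ages did not overlap in either. AGL71 was called lower, at -0.26 ± 0.10, but not when only these 6 arrays entered the fit, with quantile normalization or array weights, or without day 9 replicate 2 or 3 or day 4 replicate 1. AGL42 was at the low end of the scale at day 4. SVP and TFL1 were not analysed here.

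Of 23 MADS-box genes, 3 were called higher and 7 lower, with a median of -0.17, and 2 and 4 after removal of the length trend. Besides AGL24, the higher ones were AGL16 (1.04 ± 0.38) and AGL65 (0.57 ± 0.23), and both calls ended with the length trend removed, with arrays centred, and without day 9 replicate 2 or day 4 replicate 2. Below day 4 lay AGL87, with 7.99, 8.18 and 8.19 at day 9 and 10.20, 9.91 and 10.21 at day 4, and AT1G30260, listed with the synonym AGL79, with 6.94, 6.55 and 6.32 at day 9 and 9.02, 9.00 and 9.19 at day 4. Their differences of -1.99 ± 0.24 and -2.46 ± 0.53 were the only falls beyond 2-fold in the list. AT1G30260 entered the list through this synonym alone, and whether it is a MADS-box gene was not checked.

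All 5 measured genes of the shoot meristem and organ boundary were called, 1 higher and 4 lower at day 9. CLV3, the stem cell peptide, read 2.60, 2.56 and 2.67 at day 9 and 4.38, 4.32 and 4.37 at day 4, a difference of -1.74 ± 0.25 (limma, adjusted p = 7.17e-06) and -1.20 with the length trend removed. At day 9 it was not far above the low end of the scale. LAS, a GRAS factor of axillary meristems, read 2.45, 2.52 and 2.52 at day 9 and 3.42, 4.26 and 3.83 at day 4. ULT1, a chromatin factor that limits the meristem, differed by -0.89 ± 0.17 and the cytokinin response regulator ARR15 by -0.52 ± 0.21, where the call of ARR15 ended with the length trend removed (-0.34) and without 4 of the 6 arrays in turn. POL, a phosphatase of the CLAVATA pathway, was higher, with 7.10, 6.68 and 7.25 at day 9 and 5.57, 4.38 and 5.30 at day 4. STM, KNAT1 and the CUC genes were not analysed here.

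Regulators of leaf polarity and organ shape split, with 3 higher and 4 lower of 8. JAG and its paralogue NUB, zinc finger genes that promote lateral growth of young organs, were both lower: NUB read 6.72, 7.61 and 7.12 at day 9 and 9.07, 9.17 and 8.86 at day 4 (difference -1.88 ± 0.31) and JAG differed by -1.57 ± 0.39. The YABBY genes YAB5 (-0.86 ± 0.28) and YAB3 (-0.51 ± 0.13), markers of the lower side of primordia, were lower too, the call of YAB5 ending without day 9 replicate 1 or day 4 replicate 3. PTL, a trihelix gene known from the sepal margin, was higher, with 5.77, 4.90 and 5.46 at day 9 and 3.39, 3.76 and 3.36 at day 4 (difference 1.87 ± 0.35), as were AN (1.16 ± 0.19), a regulator of leaf width, and CYP78A9 (0.87 ± 0.30), which promotes organ size and whose call ended without day 9 replicate 1 or day 4 replicate 2.

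Of 4 stomatal lineage genes, 1 was called higher and 1 lower. MUTE, which ends the self-renewal of the stomatal precursor, read 3.15, 3.43 and 3.18 at day 9 and 4.32, 4.67 and 4.41 at day 4. FMA (FAMA), which acts after it in the guard mother cell, read 4.40, 4.39 and 4.53 at day 9 and 3.19, 3.12 and 2.70 at day 4. The 2 thus moved in opposite directions, by -1.22 ± 0.20 and 1.44 ± 0.27, while SPCH, which starts the lineage, did not pass the test (0.46 ± 0.35; limma, adjusted p = 0.284). TRY, an inhibitor of trichome fate, was lower (-1.38 ± 0.22) in the trichome and root hair list of 4 genes. SPI of that list, a gene of trichome shape, was called higher at 0.72 and stood at -0.37, not called, with the length trend removed, and its call ended without day 9 replicate 1 or 3 or day 4 replicate 1.

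Cell wall loosening genes were lower at day 9. Of 32 expansin, xyloglucan transferase and wall glucanase genes 15 were called lower and 1 higher, with a median of -0.53 against -0.06 for all named genes, and 14 and 1 with the length trend removed. After EXPA8 followed EXPB1, with 5.37, 5.25 and 5.46 at day 9 and 8.19, 7.83 and 7.51 at day 4 (difference -2.49 ± 0.35), and EXLB1 (-2.31 ± 0.45). EXPA15 (-1.89 ± 0.21), XTH19 (-1.59 ± 0.45), GH9B18 (-1.40 ± 0.34) and XTH33 (-1.28 ± 0.21) were also at least 2-fold lower. The call of XTH19 ended without day 4 replicate 1. GH9B7 alone was called higher, at 0.36 ± 0.13, and not with the length trend removed (0.26), with arrays centred or without 4 of the 6 arrays in turn. Of 13 genes of wall polymer synthesis and pectin 1 was called higher and 2 lower, with a median of 0.295 (0 and 3, with a median of -0.03, with the length trend removed). Here the rise of CSLC12 (0.69 ± 0.19) ended with the length trend removed, and the falls of CSLA03 (-0.68 ± 0.27) and the pectin methylesterase ATPMEPCRB (-0.98 ± 0.35) when only the 6 arrays entered the fit and without day 9 replicate 1 or 3 or day 4 replicate 1. The call of CSLA03 also ended without day 9 replicate 2 or day 4 replicate 3, and CSLC12 was at the low end of the scale at day 4.

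Auxin and gibberellin genes were also more often lower than higher. Of 20 auxin genes 9 were lower and 1 higher (median -0.24; 8 and 2 with the length trend removed). Among the synthesis genes, YUC4 read 5.76, 5.63 and 5.62 at day 9 and 7.71, 7.75 and 7.78 at day 4 (difference -2.08 ± 0.35; limma, adjusted p = 4.28e-05), with YUC2 (-1.13 ± 0.27) and YUC6 (-1.09 ± 0.21) lower as well. IAA29, an early-response repressor, differed by -1.92 ± 0.36 and SHI, a factor of auxin synthesis, by -1.27 ± 0.33. GH3.9, of the family that conjugates auxin, was the gene called higher (0.54 ± 0.21), a call that ended with the length trend removed (0.22), with arrays centred and without 4 of the 6 arrays in turn.

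Of 7 gibberellin and brassinosteroid genes, 4 were lower and 0 higher. They were the receptors GID1B, with 6.64, 6.66 and 6.43 at day 9 and 9.04, 8.65 and 8.34 at day 4 (difference -2.10 ± 0.26), and GID1C (-1.30 ± 0.38), and the F-box genes SLY2, with 4.49, 4.64 and 4.41 at day 9 and 7.53, 7.08 and 6.67 at day 4 (difference -2.58 ± 0.50), and SLY1 (-0.52 ± 0.16). The third receptor, GID1A, was not called (0.28 ± 0.19). The fall of SLY1 was not called with the length trend removed (-0.19).

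Genes of cell division and of the cytoskeleton were called higher more often than lower at day 9 on the deposited scale. Over all named genes 23.1% were called higher and 25.6% lower. Of 16 cell cycle and division genes 7 were called higher and 1 lower (median 0.27), 4 and 2 with the length trend removed, and 4 and 4 with arrays centred. POLD3, a subunit of DNA polymerase delta, read 6.22, 5.67 and 6.78 at day 9 and 3.39, 4.32 and 4.56 at day 4 (difference 2.13 ± 0.45). TOPII, the topoisomerase II gene, differed by 2.06 ± 0.49 and AUR3, an Aurora kinase of chromosomes, by 0.99 ± 0.28. HTR12, the centromeric histone H3, was lower, with 9.98 to 10.26 on the day 9 arrays and 10.73, 11.12 and 10.88 on the day 4 arrays. All 3 of its day 9 arrays were below its day 4 arrays, as the rule for naming it required.

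Among 30 tubulin, actin, kinesin and microtubule genes, 10 were higher and 6 lower (10 and 5 with the length trend removed, 9 and 7 with arrays centred). Whether this differs from the 23.1% higher and 25.6% lower over all named genes was not tested. KINESIN-12B, a motor of the phragmoplast, the structure that builds the new wall in dividing cells, read 7.61, 7.45 and 8.26 at day 9 and 4.85, 4.52 and 5.83 at day 4 (difference 2.70 ± 0.52). KINESIN-13A differed by 2.42 ± 0.37. The calmodulin-binding microtubule proteins of the IQD family went both ways, with iqd32 (2.47 ± 0.49), IQD24 (2.20 ± 0.35) and IQD31 (1.47 ± 0.34) higher and IQD23 (-1.35 ± 0.33) and IQD26 (-1.17 ± 0.37) lower. The call of IQD26 ended without day 9 replicate 3 or day 4 replicate 2.

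Of 18 chromatin and silencing genes 6 were higher and 1 lower, but 3 and 4 with the length trend removed, and the list holds long genes (median length 4582 bp against 2217 bp over all named genes). CHR23 (4.97, 4.35 and 5.52 at day 9 and 2.44, 1.70 and 1.47 at day 4) and CHR24 (1.78 ± 0.41) kept their calls. CHR17 (1.18 ± 0.38) did not (limma, adjusted p = 0.145 with the length trend removed), nor did it without day 9 replicate 3 or day 4 replicate 1. In the 7 histone genes 2 were higher and 1 lower, with the linker histone HON4 at 0.93 ± 0.21 and HTB2 at 0.62 ± 0.19, against a list median of -0.14. With the length trend removed 4 were higher and 1 lower (median 0.36), while with arrays centred 1 was higher and 4 lower and HTB2 was not called, so the list has no settled direction. Of 17 RNA polymerase subunit and ribosome biogenesis genes 8 were lower and 4 higher (median -0.57). NRPB9A, of RNA polymerase II, read 5.70, 5.97 and 5.45 at day 9 and 7.44, 7.07 and 7.08 at day 4, and NRPD7, of RNA polymerase IV, differed by -1.33 ± 0.25. NRPB6A was higher, at 1.29 ± 0.26.

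Nuclear genes of the photosynthetic apparatus changed little as a list, with 5 higher and 2 lower of 17 and a median of 0.09 (7 and 0 with the length trend removed, 3 and 4 with arrays centred). The 5 included enzymes of the carbon-fixing cycle: SBPASE read 11.85, 12.02 and 11.67 at day 9 and 10.45, 11.01 and 10.77 at day 4 (difference 1.11 ± 0.18), and PRK differed by 1.06 ± 0.36, a call that ended with arrays centred and without day 9 replicate 1 or 2 or without day 4 replicate 1. NdhS, a subunit of the chloroplast NDH complex, differed by 0.99 ± 0.21. The 3 antenna genes LHCB4.1, LHCB4.2 and LHCB4.3 stood at 0.10, -0.09 and -0.28 and were not called. Of 11 chlorophyll and tetrapyrrole genes, 5 were higher and 0 lower (3 and 2 with arrays centred). HEMA2, of the first committed step, read 5.48, 4.62 and 5.20 at day 9 and 3.61, 3.11 and 2.80 at day 4, and CHLI2, of magnesium chelatase, differed by 0.74 ± 0.26 and HEME1 by 0.69 ± 0.17. The call of CHLI2 ended without day 9 replicate 3 or day 4 replicate 1 and with arrays centred.

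Genes of the plastid genome changed direction as a list when the length trend was removed. Of 69 genes 31 were called lower and 8 higher at day 9, with a median of -0.51, whereas with the trend removed 22 were higher and 9 lower, with a median of 0.15. They are short genes, with a median of 555 bp, and among the probe sets with the shortest genes this removal turned the median difference from -0.43 into 0.18. Called both ways were the falls of petN, petG, psbI (-2.35 ± 0.28), petD (-2.06 ± 0.73), ndhG (-2.16 ± 0.51), atpI (-1.63 ± 0.38), ndhF (-1.18 ± 0.29), rbcL (-0.97 ± 0.28) and psbC, and the rises of rps3 (1.72 ± 0.37), rpl22 (1.50 ± 0.28), psaA (1.37 ± 0.41), rpl16 (1.096 ± 0.36), rpl36, rpl14, rps19 and atpB. Of these 8 rises, 6 are genes of ribosomal proteins that lie side by side in the plastid genome. Without 1 array the calls of petD (day 9 replicate 3 or day 4 replicate 1), psaA (day 9 replicate 1), rbcL (day 4 replicate 1) and rpl16 (day 9 replicate 3 or day 4 replicate 2) ended. The plastid genes averaged 9.24 to 9.81 on the day 9 arrays and 9.90 to 10.4 on the day 4 arrays.

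Defence and secondary metabolism genes differed by class. Of 18 jasmonate, salicylate, defensin and thionin genes 9 were lower and 2 higher, and 5 and 3 with the length trend removed. PDF1.4 read 2.52, 2.46 and 2.38 at day 9 and 5.78, 3.07 and 4.53 at day 4, with day 4 replicate 2 near the day 9 arrays, and its call ended without day 4 replicate 1. The 2 higher genes were MYC4, with 6.76, 6.88 and 6.48 at day 9 and 3.96, 4.65 and 5.89 at day 4, and MYC3 (1.81 ± 0.44), the bHLH factors of the jasmonate response. The list was matched by symbol, and 2 of its 9 falls, those of PDF1A and PDF1B, are of peptide deformylases of the organelles and not of defensins. The others are PDF1.2, PDF1.4, PDF2.5 and the defensin-like LCR66, LCR68 and LCR69, with the thionin THI2.2. The calls of LCR66, LCR68, LCR69, PDF2.5 and PDF1A ended with the length trend removed. That of PDF2.5 also ended without day 9 replicate 3 or day 4 replicate 3. The calls of LCR66 and LCR68 also ended without day 9 replicate 3 or day 4 replicate 1, and those of LCR66 and PDF1B without day 9 replicate 1.

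Of 8 glucosinolate genes 6 were higher and 1 lower (median 0.71), and 3 and 1 with arrays centred. The transporters GTR2, with 7.98, 7.78 and 7.79 at day 9 and 5.99, 6.84 and 5.61 at day 4 (difference 1.71 ± 0.26), and GTR1 (0.68 ± 0.24) were among the 6, together with the side-chain gene AOP1 (1.22 ± 0.41), whose call ended without day 4 replicate 1, UGT74B1 (0.97 ± 0.16), BCAT4 (0.73 ± 0.23) and GSTU20 (0.29 ± 0.10). The calls of GTR1, BCAT4 and GSTU20 ended with arrays centred, that of GTR1 also with the length trend removed and without day 9 replicate 3 or day 4 replicate 3, and that of GSTU20 without day 9 replicate 1. AOP3 was called lower (-0.43 ± 0.17), but not when only these 6 arrays entered the fit or without day 9 replicate 1 or 2 or day 4 replicate 2 or 3. NAI1, the bHLH regulator of ER bodies, which hold defence enzymes, was lower, with 5.24, 5.21 and 5.57 at day 9 and 7.53, 7.80 and 8.01 at day 4 (difference -2.44 ± 0.33). The jacalin lectins of the same list split, JAL23 at 2.27 ± 0.38 and JAL33 at -1.50 ± 0.30.

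In the flavonoid list of 7 genes 2 were higher and 1 lower (1 and 2 with arrays centred). DFR, the enzyme that leads to anthocyanins, read 10.88, 10.69 and 10.96 at day 9 and 8.21, 8.61 and 9.40 at day 4 (difference 2.102 ± 0.27; limma, adjusted p = 2.20e-06). UGT78D1 was called higher at 0.43 ± 0.18 and UGT78D2 lower at -0.58 ± 0.18, and both calls ended without day 4 replicate 1. That of UGT78D1 also ended without each of the other arrays but day 9 replicate 2. Of 17 cytochrome P450 genes 7 were higher and 1 lower (5 and 3 with arrays centred), 6 of the 7 from the CYP71B family, led by CYP71B34 (1.82 ± 0.43), CYP71B28 (1.60 ± 0.36) and CYP71B37 (1.42 ± 0.33). Probe sets of such close relatives can share signal. Of 46 UGT glycosyltransferases 16 were lower and 7 higher, with UGT74D1, which acts on auxin, at -1.79 ± 0.30, UGT76E2 at -1.51 ± 0.27 and UGT76C2, which acts on cytokinins, at 1.60 ± 0.41.

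Of 8 cold and dehydration genes 4 were higher and 0 lower. LTI30, a dehydrin, read 6.21, 6.47 and 5.46 at day 9 and 3.75, 2.71 and 5.40 at day 4, with day 4 replicate 3 just below the lowest day 9 array. COR47, another dehydrin, differed by 1.43 ± 0.24 and COR15B by 0.98 ± 0.27. The 7 seed storage and maturation genes held 1 rise, that of AT2G44060 (1.11 ± 0.16), and 0 falls, and the oleosin OLEO3 was not called (-0.46 ± 0.23). In the list of 4 lipid breakdown genes, the storage lipid lipase SDP1 was higher (1.41 ± 0.35) and the peroxisomal ubiquitin conjugase PEX4 lower (-1.28 ± 0.21). ICL, of the glyoxylate cycle, was not called (-1.17 ± 0.96; limma, adjusted p = 0.318).

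Redox genes went both ways, 6 higher and 8 lower of 25, and 9 and 6 with the length trend removed. The methionine sulfoxide reductases MSRB5 and MSRB6 moved in opposite directions: MSRB5 read 11.82, 11.82 and 11.71 at day 9 and 8.93, 9.63 and 9.41 at day 4 and MSRB6 read 7.70, 7.56 and 7.32 at day 9 and 9.76, 9.34 and 9.56 at day 4. The differences were 2.46 ± 0.19 and -2.03 ± 0.35 (limma, adjusted p = 4.30e-10 and 6.11e-05). Neither pair of ages overlapped, as the rule for naming these genes required. The glutaredoxins ROXY2 (-2.00 ± 0.43) and ROXY1 (-1.69 ± 0.49), known from petal and anther development, were lower.

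Among 34 sugar, nitrate and ion transporters 10 were lower and 5 higher (14 and 3 with the length trend removed). Of the falls, 5 were SWEET genes named as such, and a further one was SAG29, the senescence-associated SWEET15. AT3G21670 (NPF6.4) read 3.35, 3.54 and 3.55 at day 9 and 6.71, 6.24 and 6.48 at day 4, a difference of -2.99 ± 0.41, while AT1G59740 (NPF4.3) was higher (2.52 ± 0.35). The 24 serine carboxypeptidase-like genes had 5 higher and 4 lower (4 and 7 with the length trend removed, 4 and 8 with arrays centred), and after scpl31 the next rises were those of scpl48 (1.53 ± 0.32) and SCPL49 (1.40 ± 0.26). Of 39 ubiquitin genes 16 were higher and 7 lower (12 and 6 with the length trend removed, 11 and 9 with arrays centred). The ubiquitin proteases UBP15, with 7.34, 6.96 and 7.59 at day 9 and 3.78, 5.42 and 5.67 at day 4, UBP23 (2.26 ± 0.52) and UBP25 (2.02 ± 0.45) led the rises, against the ligases PUB25 and PUB26 among the falls.

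Transcription factor families gave no common direction. Of 20 bZIP genes 8 were higher and 7 lower (5 and 8 with arrays centred), with AT4G38900 (2.26 ± 0.38) and AT2G21230 (2.11 ± 0.32) at one end and BZIP34, with 4.75, 4.66 and 4.47 at day 9 and 7.37, 6.56 and 7.13 at day 4, and bZIP44 (-2.22 ± 0.42) at the other. In the 7 WRKY genes, 2 were higher and 2 lower: WRKY20 differed by 2.55 ± 0.36 and WRKY22 by -1.82 ± 0.35. Of 7 bHLH genes 3 were higher, bHLH121 (1.93 ± 0.38), bHLH34 (1.15 ± 0.31) and bHLH115 (0.79 ± 0.14), and ILR3 was lower (-0.45 ± 0.14; not called without day 9 replicate 2 or day 4 replicate 1). Of 18 senescence-associated genes 6 were lower and 3 higher, with ATG3 at 1.05 ± 0.26 and ATG8B at -0.96 ± 0.19. The 10 heat shock and chaperone genes had 2 each way and 0 higher with the length trend removed, and 5 lower with arrays centred. HSA32 differed by -1.16 ± 0.28, the protease subunit NCLPP7 by -0.70 ± 0.22 (not called without day 9 replicate 3 or day 4 replicate 2) and Cpn60beta4 by 1.05 ± 0.41 (called with all arrays, and without a single array only when that was day 4 replicate 3). In the light and clock list of 5 genes GI was higher and HYH (-0.90 ± 0.36) and XCT (-0.86 ± 0.27) lower. The call of HYH ended with the length trend removed and without 4 of the 6 arrays in turn, and that of XCT without day 9 replicate 1 or 2.

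**Figure D3:**
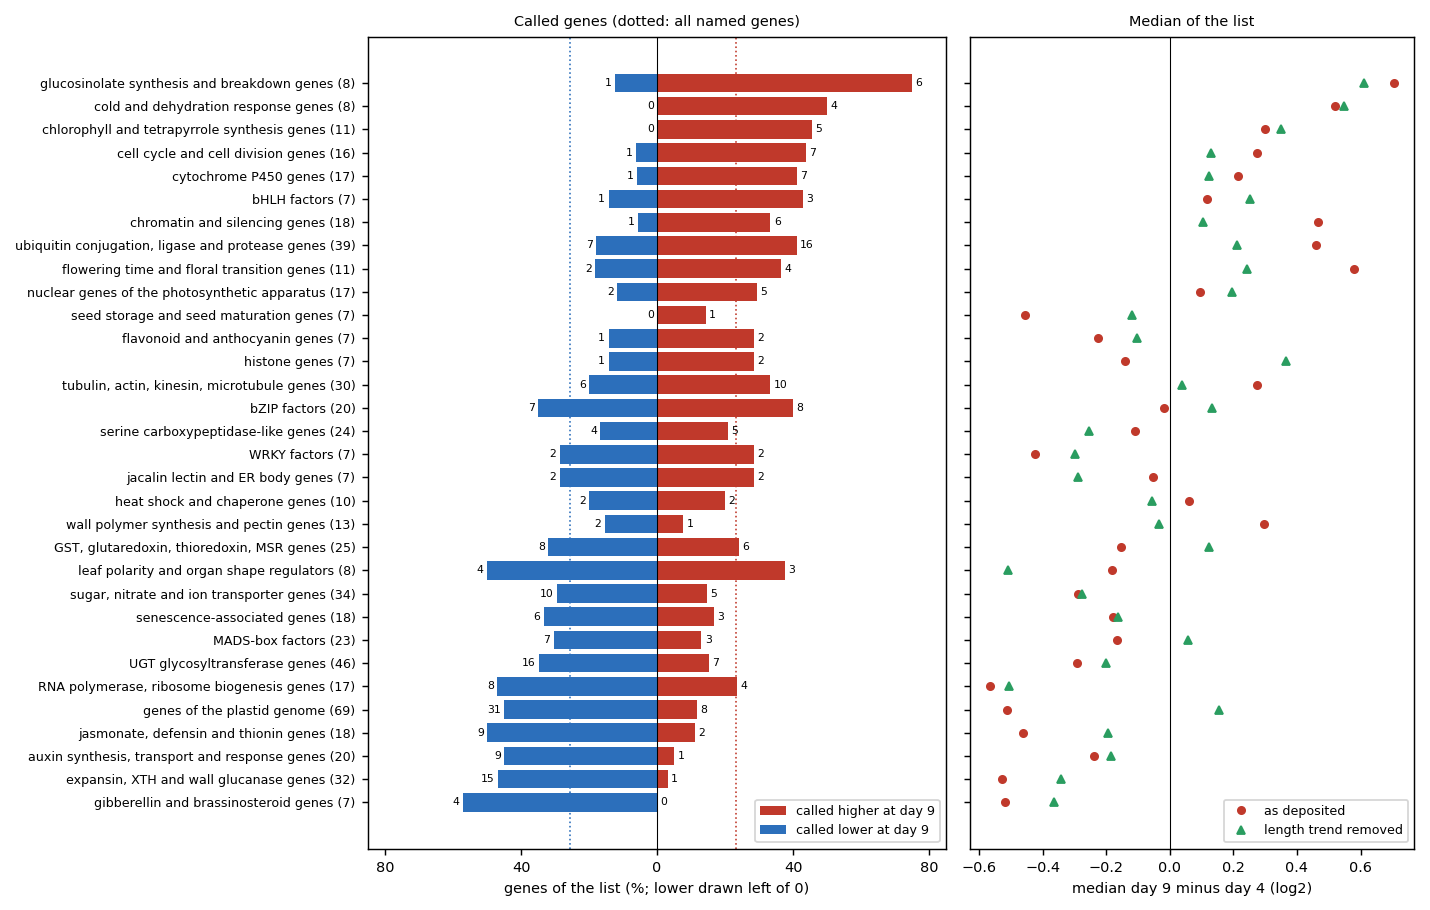
Gene lists with at least 7 measured members (number in brackets). Left, the percentage of genes called higher (red, right of 0) and lower (blue, left of 0) at day 9, with the number at the bar and the shares over all 10781 named genes dotted; right, the median log2 difference as deposited (circles) and with the length trend removed (triangles). More genes were called lower than higher for gibberellin (4 of 7 lower), expansin (15 of 32) and auxin genes (9 of 20), and more were called higher for glucosinolate genes (6 of 8).

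The later ages of the FRI;FLC apex place these changes in a course. Between day 9 and day 11, 979 probe sets were called (5.07%), and between day 14 and day 21, 2915 (15.1%), of which 1604 were higher (8.30%) and 1311 lower (6.78%) at day 21. The first of these comparisons shares the day 9 arrays with the one described. Of the 2827 probe sets at least 2-fold higher at day 9 than at day 4, the median stood 0.63 above day 4 at day 6, 1.45 at day 9, 1.78 at day 11, 1.38 at day 14 and 1.03 at day 21, and 1455 (51.5%) were still at least 2-fold above day 4 at day 21. For the 1856 at least 2-fold lower, the medians were -0.45, -1.43, -1.73, -1.41 and -1.10 at the same ages, and 1000 (53.9%) stayed at least 2-fold lower at day 21. The sets were chosen on the day 9 and day 4 arrays, so these medians and the day 6 counts that follow are a description. The group mean at day 6 lay between those of day 4 and day 9 for 2087 of the higher and 1341 of the lower probe sets, where day 6 had 2 arrays that differed from each other (r = 0.954).

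Some genes went on in the same direction. AGL24 averaged 3.97, 6.67, 7.83, 9.01, 9.28 and 9.73 at days 4, 6, 9, 11, 14 and 21, with a further rise of 1.18 between day 9 and day 11 (limma, adjusted p = 0.0331). The course of scpl31 was alike, with 3.39, 6.86, 8.46, 9.86, 10.11 and 10.77 at these ages. AGL87 averaged 10.11, 8.05, 8.12, 5.81, 4.99 and 2.94 at these ages, and its falls after day 9 (-2.31 to day 11) and after day 14 (-2.05 to day 21) were both called. MSRB6 fell again by 3.58 between day 9 and day 11 (limma, adjusted p = 6.52e-07) and stayed there.

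Others turned back. KINESIN-12B averaged 5.07, 6.56, 7.77, 8.27, 6.66 and 4.60 at the same 6 ages, and its difference between day 21 and day 14 was -2.05 (limma, adjusted p = 0.00726). TOPII (-1.79), POLD3 (-1.73), LD (-1.48) and RH39 (-1.59) were likewise called lower at day 21 than at day 14. Of the falls, bZIP44 returned to 9.43 at day 21, against 8.84 at day 4, and NAI1 (1.44) and JRG21 (1.45) were called higher at day 21 than at day 14. Over all, 374 of the 2827 higher and 364 of the 1856 lower probe sets (13.2% and 19.6%) were called in the opposite direction between day 14 and day 21, a shift over which the trend on gene length changed as well, with slopes of -0.07, -0.14 and -0.11 at day 21 and 0.33, 0.84 and -0.04 at day 14.

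**Figure D4:**
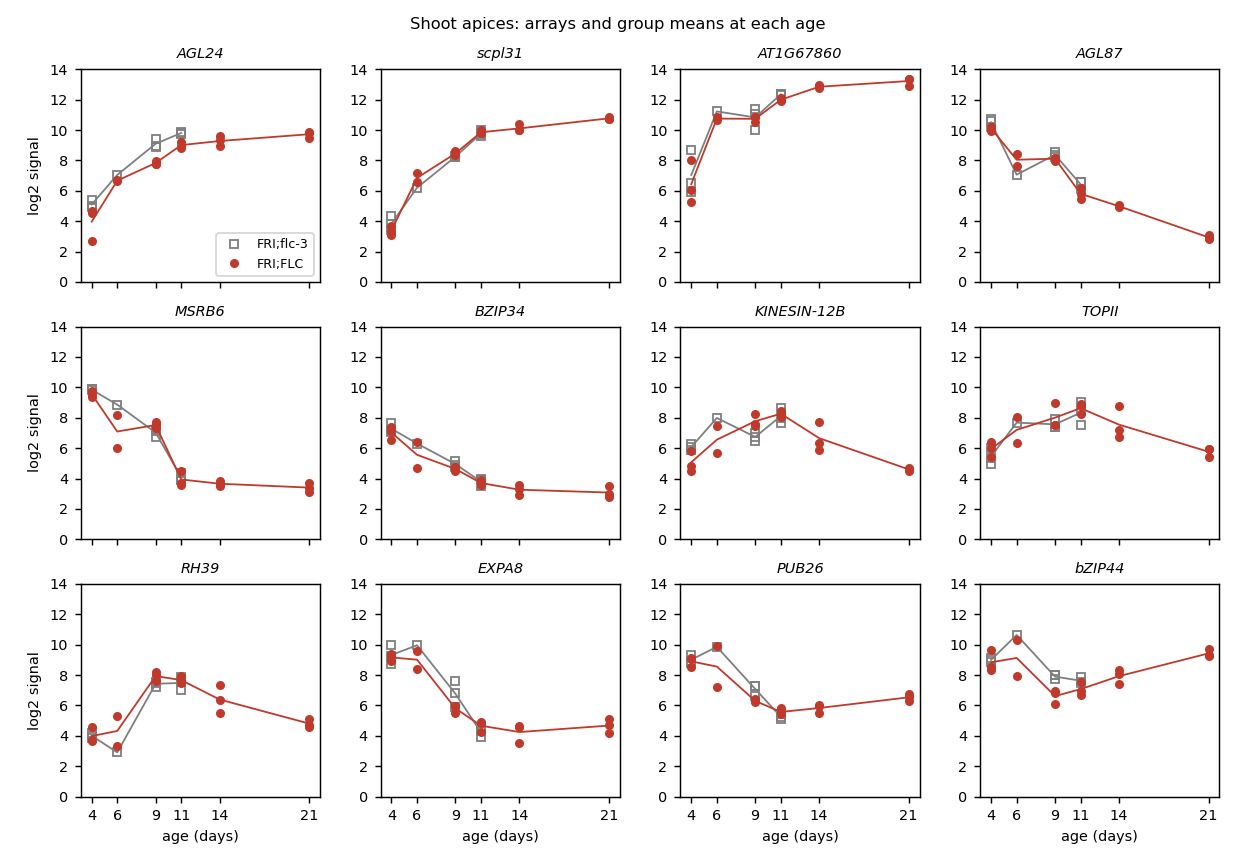
log2 signal of 12 genes in shoot apices against age in days, with each array as a point and lines through the group means; squares are FRI;flc-3 (days 4 to 11) and filled circles FRI;FLC (days 4 to 21). AGL24, scpl31 and AT1G67860 are higher and AGL87, MSRB6 and BZIP34 lower at each later age than at day 4, while the means of KINESIN-12B, TOPII and RH39 are highest at day 9 or day 11.

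The same interval in FRI;flc-3 apices, which lack functional FLC and were sampled on 3 arrays per age, gives a second measurement with no array in common. In FRI;flc-3, 8045 of 19324 probe sets were called (41.6%), 4331 higher (22.4%) and 3714 lower (19.2%) at day 9. Of these 8045, 6200 (77.1%) were called with the same sign in FRI;FLC, which is 66.1% of the 9384 called in FRI;FLC, and 9 were called with opposite signs. Across the probe sets, which are no independent replicates and share the length trend, the 2 age changes had a Pearson r of 0.878, and 0.856 with the trend removed in both. AGL24 differed by 4.00 in FRI;flc-3 against 3.86 in FRI;FLC. AT3G53250 differed by -6.17 in FRI;flc-3 against -5.71 in FRI;FLC, and SMZ by -2.35 in FRI;flc-3 against -2.11 in FRI;FLC. The same order of genotypes gave -2.56 and -3.35 for EXPA8, and -2.40 and -1.74 for CLV3.

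The lists were alike in direction for wall loosening (14 lower and 1 higher in FRI;flc-3 against 15 and 1 in FRI;FLC) and glucosinolate genes (4 higher and 1 lower in FRI;flc-3 against 6 and 1 in FRI;FLC). Other lists were less alike in their counts, which is no test of a difference. Cold and dehydration genes had 1 higher and 3 lower in FRI;flc-3 against 4 and 0 in FRI;FLC, and gibberellin and brassinosteroid genes 2 and 2 in FRI;flc-3 against 0 and 4 in FRI;FLC. Histone genes had 1 higher and 4 lower in FRI;flc-3 against 2 and 1 in FRI;FLC, auxin genes 4 and 6 in FRI;flc-3 against 1 and 9 in FRI;FLC, and MADS-box genes 3 and 2 in FRI;flc-3 against 3 and 7 in FRI;FLC. LTI30 differed by -1.28 in FRI;flc-3 against 2.095 in FRI;FLC, but the difference between these changes did not pass the test (limma, adjusted p = 0.156).

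A test of the interaction, the age change in FRI;flc-3 minus that in FRI;FLC, called 6 of 19324 probe sets (0.031%), 2 positive and 4 negative, and 1473 had an unadjusted p under 0.05. MUTE read 3.93, 3.77 and 3.53 at day 9 and 3.35, 3.58 and 2.77 at day 4 in FRI;flc-3, against 3.15, 3.43 and 3.18 at day 9 and 4.32, 4.67 and 4.41 at day 4 in FRI;FLC. Its age change was thus 0.52 in FRI;flc-3 against -1.22 in FRI;FLC, with an interaction of 1.74 ± 0.28 (limma, adjusted p = 0.0104). SAG29 changed by -2.33 in FRI;flc-3 against -0.84 in FRI;FLC (interaction -1.49 ± 0.26; limma, adjusted p = 0.0126). AT3G16670 changed by 4.09 in FRI;flc-3 against 1.34 in FRI;FLC (interaction 2.75 ± 0.50; limma, adjusted p = 0.0236). SAG29 at day 9 (1.80 in each genotype) and AT3G16670 at day 4 (1.59 in FRI;flc-3 against 1.66 in FRI;FLC) were at the low end of the scale in both genotypes, so the sizes of these changes are not exact. The other 3 probe sets carry no gene name here. Of them, 246072_at was also at the low end of the scale at day 9, at 1.91 in FRI;flc-3 against 1.84 in FRI;FLC. How many probe sets passed this test depended on single arrays, as given under the dependence on processing. AT2G16380 (limma, adjusted p = 0.0548) and AT5G15780 (limma, adjusted p = 0.153) had the next smallest p among named genes and were not called, and AT2G16380 was at the low end of the scale in FRI;FLC at both ages.

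**Figure D5:**
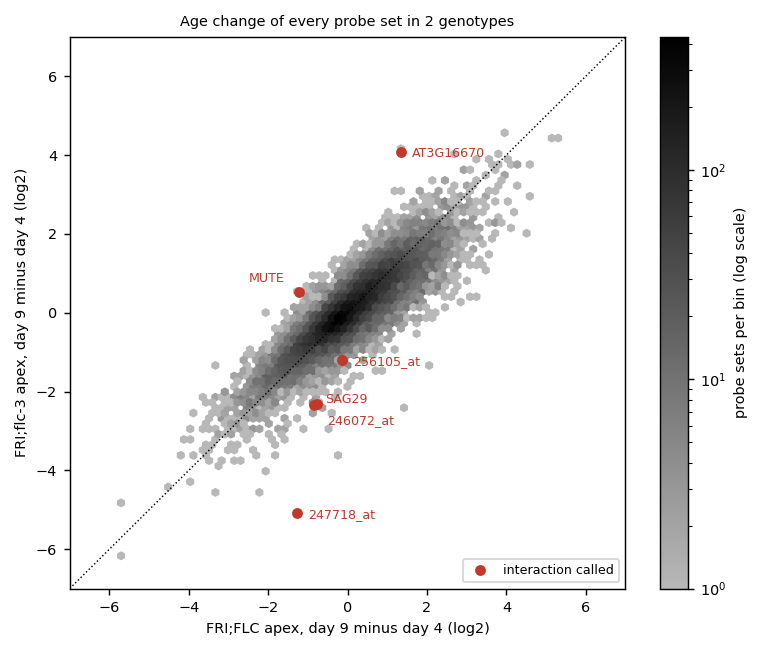
Day 9 minus day 4 (log2) of 19324 probe sets in FRI;flc-3 (vertical axis) and FRI;FLC (horizontal axis), shaded by the number of probe sets per bin on a log scale; the dotted line marks equal change. The 6 probe sets called in the interaction test are red, and MUTE is the one of them with opposite signs in the 2 genotypes.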

How the data were processed

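Each sample is 1 Affymetrix array of amplified, biotin-labelled cDNA. The authors deposited 1 table of log2 signal values per probe set, with GCRMA and MAS5 named in the submitters' processing notes without version or role, and it was used as deposited. The base of the logarithm is not given in the sources used here and was taken as 2 from the range of values. Probe sets were named through the platform annotation and RefSeq (TAIR10.1): 10918 of 19324 had 1 gene, 407 several and 7999 were not listed, and 10781 genes were represented by the probe set with the highest mean. Gene length is the span of the gene in RefSeq.

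A limma fit (version 3.58.1, R 4.3.3) with a mean per group over 30 apex arrays in 11 groups (19 residual degrees of freedom), empirical Bayes moderation with a trend, and Benjamini-Hochberg adjustment over 19324 probe sets gave all tests; an adjusted p under 0.05 is a call. It was tested on simulated data. The number of arrays limits the precision. Genes named by rule, with array values or a difference alone, were called and had ages that do not overlap. They were the 5 largest changes each way and the 10 largest each way among genes with a symbol. The 3 largest per list of at least 4 measured genes were added. Fixed regulators and the 6 genes with the smallest interaction p were named whatever their test. Of 45 lists, 37 were large enough. Members, lists and genes were chosen with earlier results of these data known. Alternatives were other scalings, a filter on low signal, other priors and weights, fewer arrays, a length correction and a replicate block.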

Additional observations from a re-analysis of the deposited data

Results flagged for a closer look

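The age change differed between the genotypes by the interaction test (FRI;flc-3 minus FRI;FLC, limma with Benjamini-Hochberg adjustment) in 6 probe sets. The interaction was 1.74 for MUTE, 2.75 for AT3G16670, -1.49 for SAG29, -1.54 for 246072_at, -1.06 for 256105_at and -3.80 for 247718_at, on the log2 scale. Of 24 alternatives, 22 called MUTE with the same sign, 17 called SAG29 and 15 called AT3G16670. Of 21 alternatives that could include them, 20 called 246072_at, 16 called 256105_at and 16 called 247718_at. For the 4 probe sets with a negative value the FRI;flc-3 arrays of day 4 averaged 4.13 (SAG29), 4.24 (246072_at), 3.93 (256105_at) and 7.82 (247718_at), against 2.64, 2.62, 2.67 and 4.09 on the FRI;FLC arrays of day 4. Mean signals of SAG29 and 246072_at at day 9 and of AT3G16670 at day 4 were below 2.05, the 10th percentile of all apex values, in both genotypes.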

How the results depend on the processing

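The count of 9384 probe sets called in FRI;FLC was 4683 with a 2-fold minimum, 5429 among probe sets whose mean signal exceeded the median, 5291 among those with a gene length, 5026 with the length trend removed, 5134 with the length trend removed and a replicate block, and 7363 to 9108 with 1 array left out. In FRI;flc-3, where 8045 were called, the counts were 4798 above the median signal, 4406 with a gene length, 4179 with the length trend removed, 4283 with the replicate block added, and 6328 to 7306 with 1 array left out. Fewer probe sets were tested in the settings with a minimum signal or a gene length. Of 123 called genes that the text names by rule, 105 were called with the same sign under every alternative, and 60 passed the minimum signal, all called. Most were picked for large differences in these same data, so this count does not stand for all 9384 called probe sets. Of 2346 values of named genes under alternatives, 65 lost the call, 4 gained it and 6 changed sign: SPI stood at -0.372 with the length trend removed, with and without the block, and AT2G16380, not called, at 0.0655 with quantile normalization, 0.0212 with array weights and -0.183 to 0.0328 with 1 array left out.

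The 6 interaction calls became 0 above the median signal and 0 when only the groups compared entered the limma fit (1473 had an unadjusted p under 0.05 with all apex arrays), 3 with a prior variance without trend, 16 with array weights, 10 without the day 6 arrays, 3 among genes with a length and 3 with arrays centred. With 1 array left out there were 1 to 15: 1 without FRI;FLC day 9 replicate 1, 3 without its replicate 3, 11 and 10 without FRI;FLC day 4 replicates 1 and 2, 2 without FRI;flc-3 day 9 replicate 3, and 15 and 14 without FRI;flc-3 day 4 replicates 1 and 2. The cause was not tested.

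Whether replicate numbers pair the arrays is not settled by the few correlations of deviations at day 9 and day 4. Same-numbered deviations gave 0.156, 0.00565 and 0.343 in FRI;flc-3 and 0.108, -0.129 and -0.0232 in FRI;FLC. Different-numbered ones ran from -0.387 to 0.274 in FRI;flc-3 and from -0.148 to 0.185 in FRI;FLC. With the replicate block 9609 were called in FRI;FLC, 8298 in FRI;flc-3 and 6 in the interaction. Centring of arrays, added after seeing the data, gave 10505 calls in FRI;FLC, 33.9% of them higher against 51.6% as deposited.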
